A study of Mus musculus with 216 samples.

Results

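The daily rhythm of gene expression in the young kidney was read from 12 of the 216 libraries of the series. They are the 12 libraries labelled young kidney, 1 for each circadian time from 18 to 62 in steps of 4 h, so they cover 2 cycles. A cosine with a period of 24 h was fitted to each gene, and genes and functions were ordered by the time of the fitted peak. Circadian times 0 to 12 are the subjective day, when mice rest, and 12 to 24 the subjective night, when they are active and eat.

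The mice were males of the C57B6/J-NIA strain, 6 months old, and each library pooled 2 samples. Genotype and treatment beyond strain are not given in the labels, and the groups set beside the young kidney share strain and sex: kidney of aged (18 months) and old (27 months) mice, and heart and lung of young mice, 12 libraries each. Poly(A) RNA was sequenced from tissue RNA extracted with Trizol, so a lower level in these bulk samples can be fewer cells of a type or less RNA per cell, which cannot be told apart. With 1 library per time, p-values measure the scatter of libraries around the cosine, and the labels do not say how the pooled samples relate to separate animals. Total counts of the 12 libraries ran from 21.2 to 24.8 M (M, mega), and levels are given as CPM, counts per M counts of the library.

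As background, the circadian clock of mammalian cells is a loop of transcription. The activators BMAL1 (gene Arntl) with CLOCK or NPAS2 bind E-box elements and switch on the Per and Cry genes, whose proteins then repress them. REV-ERB (Nr1d1, Nr1d2) and ROR receptors compete at another element that controls Arntl, and PAR bZIP factors (Dbp, Tef, Hlf) and their opponent Nfil3 act through D-box elements. In the kidney, blood flow, filtration and the excretion of sodium, potassium and water follow the day.

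The tissue label was checked against marker genes. Of the 5 proximal tubule markers (Slc34a1, Lrp2, Slc5a2, Slc22a6, Cubn), the summed level lay between 8604 and 11020 CPM in the 12 libraries, and the markers of lung summed to at most 0.130 CPM and those of skeletal muscle to at most 1.68 CPM. Both markers of the clock, Arntl and Dbp, cycled with opposite phases, as described below. Of 15 markers of 5 tubule segments, none passed the rhythm test (edgeR), with 1 at an unadjusted p under 0.05 and 0 by DESeq2, so the shares of tubule RNA showed no cycle past the threshold.

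Some libraries stood apart, and a set of adipocyte genes moved with day and night. The 6 adipocyte markers summed to 46.7 to 181 CPM in the 6 night libraries and to 2.74 to 25.8 CPM in the 6 day libraries, with no overlap (135 ± 52.6 and 12 ± 8.79 CPM, mean ± SD, n = 6 each). Of these markers, Adipoq, Plin1, Cidec and Retn passed the rhythm test with peaks from 18.1 to 19 h, and none was at 0 in all libraries. The sum also varied in aged kidney (9.19 to 294.6 CPM, high at 18, 22, 38, 42 and 46) and in old kidney (8.80 to 355.7 CPM, high at 18, 22, 26, 42, 46 and 62, but low at 38). The library at 30 had 105.7 CPM of Havcr1 and 247.7 CPM of Lcn2, genes known to be switched on in injured tubules, where the other 11 libraries had at most 1.39 and 1.995 CPM. Its 6 immune markers summed to 808.9 CPM and its 5 stromal markers to 541.1 CPM, against at most 217.6 and 234.8 CPM elsewhere, and its proximal tubule sum was the lowest. The library at 38 had 894.6 CPM of the liver gene Alb, where the others had 8.39 to 19.4 CPM, and its 4 liver markers summed to 1198 CPM against at most 267.2 CPM. The part of adipocyte, immune and liver RNA in the rhythms that follow was not tested. Calls lost without the libraries at 30 and 38, or with the adipocyte sum as a covariate, are given beside the genes named.

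**Figure D1:**
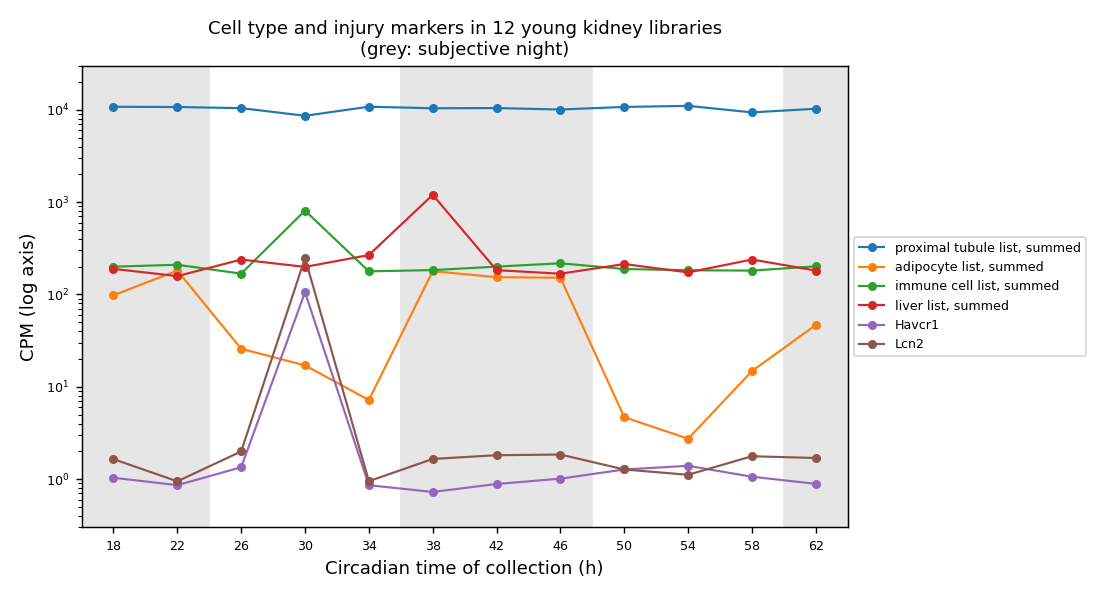
Summed CPM of the proximal tubule, adipocyte, immune and liver lists and CPM of Havcr1 and Lcn2 (y axis, log scale) in each of the 12 young kidney libraries by circadian time of collection (x axis, h; grey bands, subjective night). The adipocyte sum is 46.7 CPM or more in night libraries and 25.8 CPM or less in day libraries, the library at 30 has 105.7 CPM of Havcr1, and the library at 38 has a liver sum of 1198 CPM.

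Of 17184 genes tested, 1362 (7.93%) were rhythmic in the young kidney at a Benjamini-Hochberg adjusted p under 0.05 by edgeR's quasi-likelihood test of the cosine. Their peaks fell in the day for 607 genes (3.53% of those tested) and in the night for 755 (4.39%). The median change from trough to peak was 1.59-fold in day genes and 1.75-fold in night genes, against 1.19-fold over all genes tested, where a fitted amplitude is above 0 even without a rhythm. At least a 2-fold change was fitted in 160 day genes and 291 night genes. In 64 of the 607 day genes every day library lay above every night library. The reverse held in 125 of the 755 night genes. Peaks were most frequent at 18 to 20 h (199 genes, median 2.47-fold), 20 to 22 h (152 genes) and 6 to 8 h (148 genes), and least frequent at 2 to 4 h (50 genes). These bins held 14.6%, 11.2%, 10.9% and 3.67% of the rhythmic genes, against 8.83%, 9.22%, 10.7% and 7.26% of the genes not called, so the count at 6 to 8 h was near that background. Because peaks within 1 h of either boundary (111 day and 107 night genes) could fall on the other side of it, the division is approximate.

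Some of the night genes followed the adipocyte genes. The log2 CPM of 74 rhythmic genes correlated at 0.9 or more with the log2 adipocyte sum over the 12 libraries (the list's own called genes are among the 74), and 69 of them peaked at 18 to 20 h. Their median change was 9.68-fold, where the other 130 genes of that interval had 1.62-fold. Without these 74 genes the night count was 681 (median 1.68-fold) and the number with at least a 2-fold change 219. The 74 were chosen by a sum high in night libraries, so their night peaks and the lower night count follow from that choice. Genes that ran opposite to the sum were not removed, so the day count stayed at 607. With the adipocyte sum as a covariate 769 genes were called, 354 in the day and 415 in the night, of which 736 were among the 1362. That covariate itself follows day and night, so it takes from genes peaking near 18 h or 6 h by construction. Without the libraries at 30 and 38, 1092 genes were called (418 and 674), and 893 of them were among the 1362. Without the library at 42 the day count was 377.

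**Figure D2:**
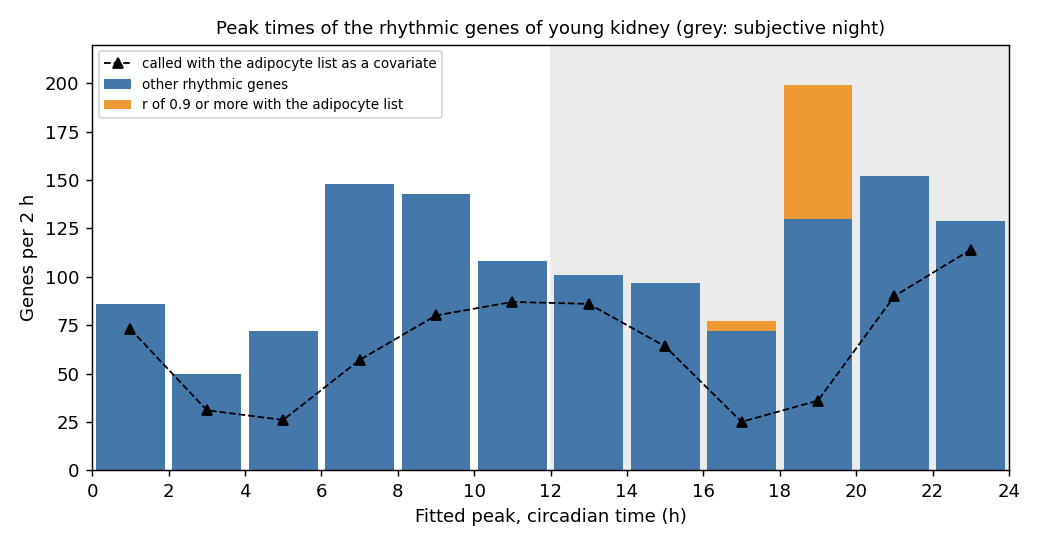
Number of rhythmic genes of young kidney (y axis) by fitted peak in bins of 2 h (x axis, circadian time; grey, subjective night); orange marks genes whose level correlates at 0.9 or more with the adipocyte list, and triangles give the genes called with that list as a covariate. The tallest bar, 199 genes at 18 to 20 h, includes 69 such genes, and with the covariate that bin holds 36 genes.

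Peak times recurred in the second cycle. Fitted to each cycle of 6 libraries by itself, the peaks of the rhythmic genes differed by a median of 1.12 h, and 1321 of 1362 (97%) lay within 4 h of each other, against 54.9% of all genes tested. The calls used both cycles, so this describes them and is no separate test. Of the 1362, 987 peaked later in the second cycle, and the median difference was 0.78 h. The 24 kidney libraries of the other ages supply no value to a young gene's curve, though they share in the estimate of spread. There, 91.6% of the young rhythmic genes peaked within 4 h of their young peak in aged kidney (52% of all genes tested) and 89.8% in old kidney (50.5%). Rhythms were called for 1106 genes (6.44%) in aged and 780 (4.54%) in old kidney, and 650 and 453 of these were among the young calls, which is 47.7% and 33.3% of the young list and 58.8% and 58.1% of the older ones. The adipocyte sum varies with time in aged and old libraries too.

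The clock genes were nearly all rhythmic, with wide curves. Of 18 genes in the lists of activators, repressors, receptors and PAR bZIP factors, 16 were rhythmic, with a median of 5.68-fold over the 18 against 1.68-fold over all rhythmic genes. Arntl, the activator gene, stood at 35.3, 45.2, 34.4, 7.14, 1.49 and 6.34 CPM at 18, 22, 26, 30, 34 and 38 and at 33.2, 49, 35.2, 8.64, 1.77 and 5.08 CPM at 42 to 62. It was high from 18 to 26 and from 42 to 50 and lowest at 34 and 58 in both cycles, a 27.1-fold change (95% interval 15.4 to 47.5) with a peak at 22.2 ± 0.29 h (SE) and an adjusted p of 7.79e-11. Its partner Npas2 peaked at 23.1 ± 0.21 h (28.9-fold), and Clock at 21.6 ± 0.33 h with only 1.87-fold, from 54.1 to 109 CPM.

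The repressors followed from late day into the night. Ciart, a small repressor of the activators, peaked at 10.2 ± 0.28 h (28.4-fold, 0.84 to 27.6 CPM), Per3 at 11 ± 0.17 h (6.28-fold) and Per1 at 11.6 ± 0.51 h (3.28-fold). Cry2 peaked at 13.5 ± 0.23 h (2.22-fold), Per2 at 14.3 ± 0.31 h (7.59-fold, 14.1 to 157 CPM) and Cry1 last, at 17.8 ± 0.22 h (8.90-fold). Cry1 stood at 30.2, 23.5, 6.90, 4.26, 8.87 and 26.6 CPM in the first cycle and at 31.6, 26.4, 6.78, 3.44, 7.75 and 21.8 CPM in the second, so every night library lay above every day library. Its adjusted p was 2.62e-07, and 5.77e-05 with the adipocyte sum, with which it correlates at 0.89, as a covariate.

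Among the receptors, Nr1d1 peaked earliest of the clock genes, at 6.90 ± 0.32 h (15.4-fold, 6.91 to 120 CPM), and Nr1d2 at 9.56 ± 0.28 h (5.08-fold). Rora stayed between 85.0 and 109 CPM (adjusted p = 0.27) and Rorb at or under 1.02 CPM (adjusted p = 0.96). Dbp, which switches on D-box genes, had the smallest p of all genes (adjusted p = 3.48e-16). It stood at 10.1, 6.03, 18, 132, 235 and 81.3 CPM in the first cycle and at 11.1, 5.94, 15.4, 104, 229 and 90.6 CPM in the second. Its level was highest at 34 and 58 and lowest at 22 and 46, a 44.3-fold change (37.2 to 52.8) with a peak at 9.59 ± 0.08 h. Tef, at a higher level (225 to 624 CPM), changed 2.54-fold with a peak at 10.6 h, Hlf 1.72-fold at 13.8 h, and their opponent Nfil3 7.94-fold at 20.4 ± 0.58 h. Of 10 further modulators, 4 were rhythmic: Bhlhe41 (4.19-fold, 10.6 h) and Bhlhe40 (1.91-fold, 13.8 h), repressors at E-boxes, the ubiquitin protease Usp2 (2.39-fold, 12.7 h), and Fbxl21 (1.74-fold, 8.72 h), a ligase subunit that acts on cryptochromes. Fbxl21 was lost with the adipocyte covariate (adjusted p = 0.18).

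**Figure D3:**
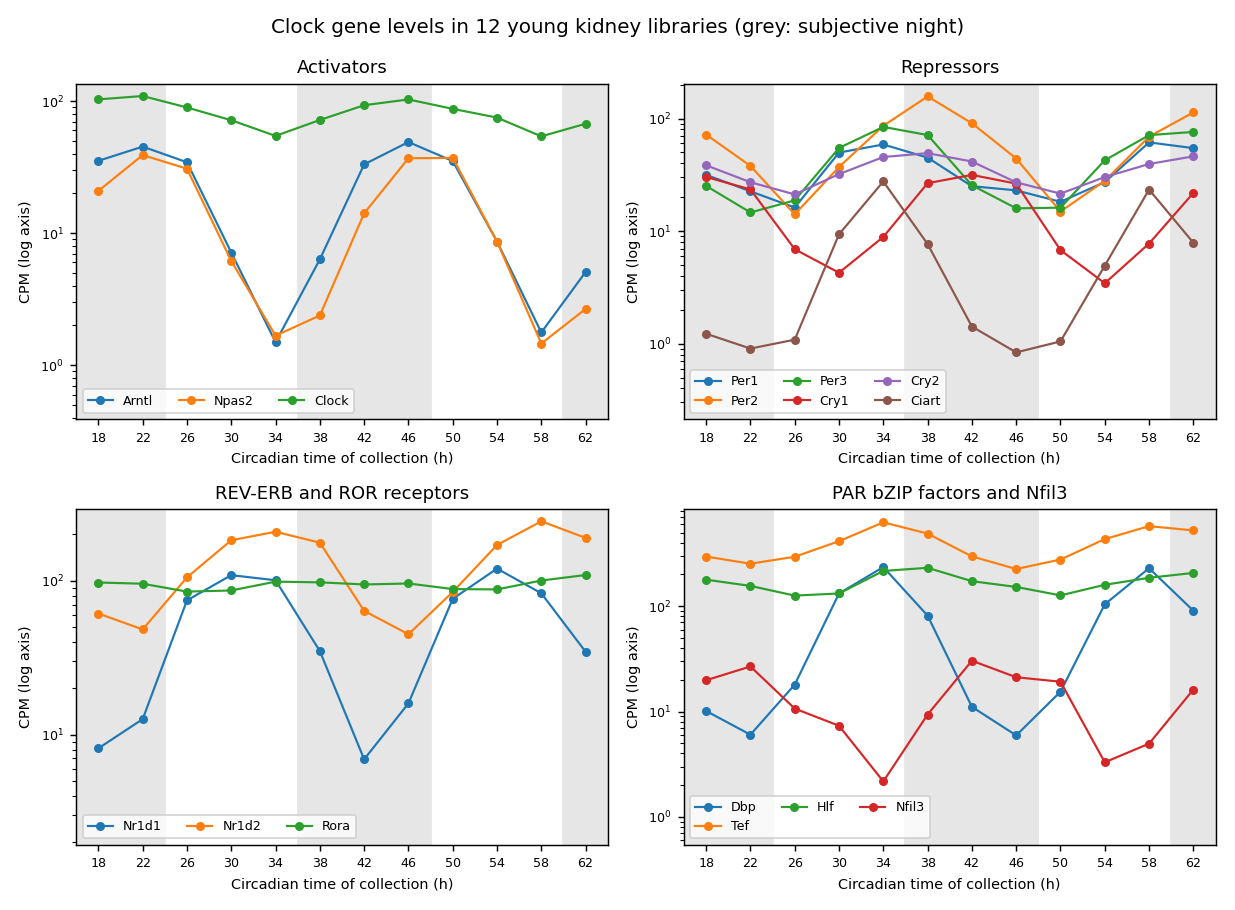
CPM (y axis, log scale) of clock genes in each of the 12 young kidney libraries by circadian time (x axis, h; grey bands, subjective night), in 4 panels for activators, repressors, receptors and PAR bZIP factors with Nfil3. Arntl and Npas2 are lowest at 34 and 58, where Dbp is highest (235 and 229 CPM), and Rora stays between 85.0 and 109 CPM.

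The order of peaks can be set beside the promoters. Windows from 250 bases before to 50 after the RefSeq start (GRCm38.p6) were searched on both strands for CACGTG (the E-box), CACGTT (an E-box variant), TTATGTAA or TTACGTAA (the D-box), TAGGTCA or TGGGTCA (the element of ROR and REV-ERB receptors) and for the heat shock element, which is GAA, TTC and GAA set apart by 2 bases of any kind. The variant differs from the E-box in its last letter alone, so no match is counted under both. Of 32851 windows, 7.15% held the E-box, 4.68% its variant, 1.06% the D-box, 6.45% the receptor element and 0.6% the heat shock element. The windows below are shown because their genes carry the sequence of peaks from day to night; capitals mark every match, and the windows of Ciart, Per3, Nfil3 and Hsph1 were added after their matches were seen.

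Nr1d1, peak 6.90 h, chr11:98775328-98775627, minus strand: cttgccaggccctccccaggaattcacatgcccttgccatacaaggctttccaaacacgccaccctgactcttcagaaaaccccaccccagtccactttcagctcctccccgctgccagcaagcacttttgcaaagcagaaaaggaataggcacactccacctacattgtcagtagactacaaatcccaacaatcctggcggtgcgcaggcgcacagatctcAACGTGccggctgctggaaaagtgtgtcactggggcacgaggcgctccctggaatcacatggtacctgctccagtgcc
Dbp, peak 9.59 h, chr7:45704997-45705296, plus strand: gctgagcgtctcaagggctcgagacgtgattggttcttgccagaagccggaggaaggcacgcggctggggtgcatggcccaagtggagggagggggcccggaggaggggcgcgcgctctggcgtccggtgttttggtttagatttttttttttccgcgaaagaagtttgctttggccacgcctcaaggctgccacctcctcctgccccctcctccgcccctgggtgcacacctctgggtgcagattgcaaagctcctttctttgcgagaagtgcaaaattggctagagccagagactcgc
Ciart, peak 10.2 h, chr3:95882179-95882478, minus strand: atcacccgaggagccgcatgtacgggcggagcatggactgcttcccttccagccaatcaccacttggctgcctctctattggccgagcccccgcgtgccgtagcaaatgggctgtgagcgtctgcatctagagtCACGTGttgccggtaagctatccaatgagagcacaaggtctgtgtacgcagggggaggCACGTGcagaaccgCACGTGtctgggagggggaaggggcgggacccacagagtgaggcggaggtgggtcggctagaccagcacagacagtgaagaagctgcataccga
Per3, peak 11 h, chr4:151044616-151044915, minus strand: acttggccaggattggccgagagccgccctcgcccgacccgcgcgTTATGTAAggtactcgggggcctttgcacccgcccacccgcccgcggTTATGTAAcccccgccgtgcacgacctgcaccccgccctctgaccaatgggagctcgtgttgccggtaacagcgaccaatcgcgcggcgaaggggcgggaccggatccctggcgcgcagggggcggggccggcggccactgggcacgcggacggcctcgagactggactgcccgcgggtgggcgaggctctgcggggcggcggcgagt
Per1, peak 11.6 h, chr11:69098699-69098998, plus strand: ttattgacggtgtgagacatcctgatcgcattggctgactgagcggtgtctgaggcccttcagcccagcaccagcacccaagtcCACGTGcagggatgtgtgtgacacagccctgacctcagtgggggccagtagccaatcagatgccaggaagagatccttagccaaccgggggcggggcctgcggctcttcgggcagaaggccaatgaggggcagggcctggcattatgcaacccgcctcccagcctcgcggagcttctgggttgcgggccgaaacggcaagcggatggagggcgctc
Hsph1, peak 17.6 h, chr5:149636266-149636565, minus strand: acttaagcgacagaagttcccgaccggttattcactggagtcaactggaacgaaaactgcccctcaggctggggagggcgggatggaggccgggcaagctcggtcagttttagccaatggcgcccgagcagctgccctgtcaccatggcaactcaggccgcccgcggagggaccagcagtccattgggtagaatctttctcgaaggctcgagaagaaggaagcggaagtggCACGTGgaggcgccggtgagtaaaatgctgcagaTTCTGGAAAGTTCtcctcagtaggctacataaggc
Cry1, peak 17.8 h, chr10:85185005-85185304, minus strand: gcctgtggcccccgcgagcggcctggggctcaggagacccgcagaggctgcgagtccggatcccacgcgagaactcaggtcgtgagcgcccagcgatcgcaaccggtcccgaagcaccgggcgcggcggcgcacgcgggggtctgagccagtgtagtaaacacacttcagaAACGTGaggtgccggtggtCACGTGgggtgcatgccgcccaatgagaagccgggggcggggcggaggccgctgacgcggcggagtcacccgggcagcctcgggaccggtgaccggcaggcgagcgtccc
Nfil3, peak 20.4 h, chr13:52980990-52981289, minus strand: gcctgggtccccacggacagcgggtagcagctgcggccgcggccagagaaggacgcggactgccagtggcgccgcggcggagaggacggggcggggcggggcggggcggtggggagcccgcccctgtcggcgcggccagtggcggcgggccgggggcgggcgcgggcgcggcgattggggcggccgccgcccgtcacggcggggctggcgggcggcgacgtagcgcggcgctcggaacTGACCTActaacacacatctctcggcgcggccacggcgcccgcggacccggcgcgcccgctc
Arntl, peak 22.2 h, chr7:113207261-113207560, plus strand: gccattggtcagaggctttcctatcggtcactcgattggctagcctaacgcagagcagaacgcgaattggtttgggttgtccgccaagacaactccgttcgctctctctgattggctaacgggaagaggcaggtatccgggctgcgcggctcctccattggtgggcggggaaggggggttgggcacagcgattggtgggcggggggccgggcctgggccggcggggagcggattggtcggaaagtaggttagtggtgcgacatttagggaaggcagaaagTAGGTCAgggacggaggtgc

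The Ciart window held the E-box at 116, 58 and 44 bases before the start, the Per1 window at 166 and the Cry1 window at 60, while the variant, read as AACGTG, was at 79 in Cry1 and at 28 in Nr1d1, whose window, unlike the others, could not be matched to the start of a transcript. Per3 held the D-box at 205 and 158 bases before its start. The receptor element stood in the windows of Arntl and Nfil3, the former 31 bases after the start and the latter 12 before it, read as TGACCTA. Hsph1 held the E-box at 19 bases before its start and the heat shock element at 16 after it, read as TTC, GAA and TTC. Of the other heat shock list members, the rhythmic Chordc1 also held that element. So did Hspd1 and Hspe1, which were not rhythmic (edgeR adjusted p = 0.876 and 0.893). The windows of the rhythmic Stip1, Ahsa1, Hspa4l, Dnajb1 and Fkbp4 did not hold it. Not shown are the windows of the rhythmic clock genes Tef and Bhlhe41, which held the E-box, and Cry2, which held the variant. Matches also stood in genes of the clock lists that were not rhythmic. Timeless held the D-box and a window of Rorb the variant (edgeR adjusted p = 0.775 and 0.964). None of the searched words was in the Dbp window, nor in any window of the rhythmic clock genes Clock, Npas2, Nr1d2, Hlf, Usp2 and Fbxl21. Further windows of Arntl and Per1, at other starts, are not shown and held none either. An absence says nothing of regions outside the windows. Over rhythmic genes with a window (1041), the E-box was in 12.49%, against 11.18% of the 12053 tested genes with one. By peak it was in 9.46% of genes at 0 to 6 h, 15.94% at 6 to 12 h, 10.14% at 12 to 18 h and 12.02% at 18 to 24 h. The heat shock element was in 0.57% of tested genes and in 0%, 0.62%, 3.38% (7 of 207) and 1.37% of rhythmic genes in the same order. These shares are descriptions and were not tested.

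Gene lists are given below as members called of members tested, to be read against 7.93% of all genes tested (3.53% with day and 4.39% with night peaks). Several transporters peaked in the day. Of 15 amino acid transporter genes, 4 were rhythmic and all peaked in the day, set against 3.53% of all genes. Slc6a19, the main apical carrier of neutral amino acids in the proximal tubule, ran from 279 CPM at 42 to 645 CPM at 34, with a median of 452 CPM. In the day libraries it stood at 434 to 645 CPM and in the night libraries at 279 to 470 CPM, a 2.19-fold change (1.82 to 2.64) with a peak at 7.64 ± 0.40 h and an adjusted p of 8.68e-06. The basolateral carriers Slc7a7 (1.38-fold, 8.75 h) and Slc7a8 (1.51-fold, 0.65 h) and the cystine carrier Slc7a9 (1.42-fold, 10.1 h) changed less. All 4 were called with the adipocyte covariate and without the libraries at 30 and 38.

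Of 13 genes of glucose transport and gluconeogenesis, 4 passed. The fructose and urate carriers Slc2a5 (1.59-fold, 10.2 h) and Slc2a9 (1.54-fold, 11.7 h) and the basolateral glucose carrier Slc2a2 (1.45-fold, 7.41 h) peaked in the day, and Pck1, an enzyme of gluconeogenesis, at 15.8 h (1.65-fold, 1335 to 2288 CPM). Slc2a2 had an adjusted p of 0.34 with the covariate, and Pck1 of 0.11 without the libraries at 30 and 38. Of 15 genes of sodium transport 2 passed, both late in the day: Slc9a3, the apical sodium-proton exchanger of the proximal tubule (1.35-fold, 8.97 h, adjusted p = 0.022), and Atp1b1, a subunit of the sodium pump (1.26-fold, 11.6 h, adjusted p = 0.038). Neither passed with the adipocyte covariate (adjusted p = 0.19 and 0.064). The cotransporters Slc12a1 and Slc12a3 and the sodium channel genes Scnn1a, Scnn1b and Scnn1g did not pass, with amplitudes of 0.03 to 0.22 on the log2 scale. Of these, Scnn1a was nearest the threshold (adjusted p = 0.067 by edgeR) and passed by DESeq2 (adjusted p = 0.033), which called 4 of the 15. Of 14 regulators of sodium transport 4 passed, Usp2, Prss8 (a protease that activates the sodium channel, 1.37-fold, 11.9 h), and Tsc22d3 and Sgk1, described with the glucocorticoid genes.

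Receptors of vasopressin, the hormone of water retention, peaked in the night. Avpr1a ran from 4.03 CPM at 58 to 17.6 CPM at 22, a 3.77-fold change with a peak at 23.2 ± 0.44 h (adjusted p = 6.38e-08). Avpr2, the receptor of the collecting duct, ran from 14.1 CPM at 34 to 30 CPM at 42 (1.68-fold, 20.9 ± 0.81 h, adjusted p = 0.0065). The other 8 genes of that list, aquaporins and Adcy6, did not pass, among them Aqp2 (adjusted p = 0.71).

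Glucocorticoid-responsive genes were split over the day. Of 15 genes, 9 passed, 4 with day and 5 with night peaks, set against 7.93% of all genes. Tsc22d3, a transcriptional regulator induced by glucocorticoids, peaked at 15.0 ± 0.37 h (3.31-fold, 31.1 to 119 CPM, adjusted p = 1.27e-07), the kinase gene Sgk1 at 15.2 h (1.84-fold), the cochaperone gene Fkbp5 at 16.2 h (2.05-fold) and Zbtb16 at 16.8 h (5.41-fold). Fkbp5 and Zbtb16 had adjusted p of 0.056 and 0.068 without the libraries at 30 and 38, and Zbtb16 of 0.11 with the adipocyte covariate. The metal-binding metallothioneins Mt2 (2.87-fold, 8.71 h) and Mt1 (2.12-fold, 8.86 h) peaked in the day and were highest in the library at 30. Lcn2 was called on that library alone, with an adjusted p of 0.0076 with it and 0.99 without it. With the covariate 8 of the list passed, and without both libraries 6.

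Immediate early genes, switched on within minutes of a stimulus, gave 6 calls of 18, all in the day (3.53% of all genes), but 5 of them were highest in the library at 30. Egr1 had 31.1 CPM there (adjusted p = 0.0054), and Fos 11.8 CPM. Without that library 2 passed, Dusp1, a phosphatase gene (1.70-fold, 10.2 h), and Ier3, which had not passed with it (adjusted p = 0.071). Of the 2 cold-inducible RNA-binding genes, which respond to a fall in temperature, Cirbp peaked at 7.07 ± 0.68 h (2.01-fold, 30 to 68.8 CPM) and Rbm3 at 12.4 ± 0.91 h (1.43-fold).

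Some chaperone genes peaked in the night. Of 21 heat shock and chaperone genes, 9 were rhythmic and all 9 peaked in the night, set against 4.39% of all genes, with peaks from 15.9 to 20.7 h. Hsph1, a partner of Hsp70, stood at 263, 191, 175, 124, 146 and 327 CPM in the first cycle and at 285, 235, 181, 144, 185 and 205 CPM in the second. Every night library (191 to 327 CPM) lay above every day library (124 to 185 CPM), a 2.05-fold change with a peak at 17.6 ± 0.71 h and an adjusted p of 0.0031. Hsph1, the cochaperones Stip1 (1.59-fold, 19.5 h) and Ahsa1 (1.48-fold, 19.7 h) and the Hsp70 relative Hspa4l (1.54-fold, 20.3 h) were the 4 called with the adipocyte covariate. Without the libraries at 30 and 38 these and Serpinh1 passed. Hsp90aa1, Hsp90ab1, Dnajb1, Fkbp4 and Chordc1 passed in neither.

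Of 22 genes of the endoplasmic reticulum stress response, 11 were rhythmic and all peaked in the night, from 12.6 to 22.2 h, set against 4.39% of all genes. Herpud1, which takes part in the breakdown of misfolded proteins, had the smallest p of these (adjusted p = 5.33e-06) and the earliest peak, at 12.6 ± 0.44 h (1.72-fold, 218 to 372 CPM). Hspa5, the main chaperone of this compartment, stood at 881, 738, 645, 470, 471 and 747 CPM in the first cycle and at 885, 730, 655, 482, 483 and 519 CPM in the second. It was highest at 18 and 42 and lowest at 30 and 34 and at 54 and 58, a 1.87-fold change with a peak at 19.6 ± 0.57 h (adjusted p = 0.017). Hyou1 (2.05-fold, 19.7 h), Creld2 (1.98-fold, 18.3 h) and Calr (1.39-fold, 22.2 h) peaked near it. With the covariate and without the libraries at 30 and 38, 5 of the list passed in each case, Herpud1, Hyou1, Creld2 and Calr in both. The adjusted p of Hspa5 was then 0.059 and 0.051.

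Genes that answer to feeding and insulin gave 12 calls of 20, with 3 in the day and 9 in the night, set against 7.93% of all genes. Igfbp1, an insulin-like growth factor binding protein that insulin lowers, ran from 1.01 CPM at 38 to 16.8 CPM at 30 and peaked at 5.56 ± 0.56 h (8.75-fold, adjusted p = 0.0033). The lipogenic genes peaked about the opposite time: Acaca (3.71-fold, 19.8 h), Fasn (5.79-fold, 19.6 h), Scd1 (6.81-fold, 19.2 h), Pnpla3 (22.2-fold, 19.97 h) and Srebf1, their regulator (2.12-fold, 21.3 h). Scd1 stood at 501, 1199, 294, 285, 184 and 1086 CPM in the first cycle and at 1191, 1382, 235, 158, 189 and 374 CPM in the second. Every night library lay above every day library, as for the adipocyte sum. Over the 12 libraries, log2 levels of Scd1 correlated at 0.93 with the log2 of that sum. With that sum as a covariate 7 of the list passed, Acaca, Pnpla3, Srebf1 and Scd2 among them, while Scd1 (adjusted p = 0.089), Fasn (0.23) and Igfbp1 (0.095) did not. Which part of these curves belongs to kidney cells was not tested.

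Of 20 genes of cholesterol synthesis and uptake, 6 passed, and 5 with the adipocyte covariate and 4 without the libraries at 30 and 38. Insig1, a brake on sterol synthesis (2.15-fold), peaked at 22.1 h and the enzyme gene Lss at 20.9 h. The regulator Srebf2 (0.68 h) and the enzyme gene Sqle (2.26 h) followed after the start of the day with 1.35-fold and 1.45-fold. Lss had an adjusted p of 0.075 in both of those settings, and Sqle of 0.064 without the libraries. Other lists had 1 to 3 calls each, set against 7.93% of all genes. Wee1, a kinase that holds back mitosis (3.13-fold, 12.9 ± 0.22 h, adjusted p = 3.53e-12), Ccnd1 (1.77-fold, 9.72 h) and Cdkn1a (3.35-fold, 23.5 h) were the 3 of 17 cell cycle genes. Alas1, the first enzyme of heme synthesis (2.06-fold, 14.4 h), Por (1.48-fold, 11.8 h) and Ephx1 (1.70-fold, 12.2 h) were the 3 of 18 genes of heme and cytochrome P450 metabolism. Nampt, the rate-limiting enzyme of the NAD salvage pathway, peaked at 14.3 h (1.65-fold), with Ckb and Nnmt the 3 of 16 in its list. Nnmt had an adjusted p of 0.81 with the adipocyte covariate. The carnitine carriers Slc22a5 (1.46-fold, 12.5 h) and Slc22a4 and the monocarboxylate carrier Slc16a9 were the 3 of 21 organic ion carriers, and Cpt1a, Slc25a20 and Angptl4 the 3 of 21 genes of fatty acid oxidation. With the covariate Slc22a4 and Angptl4 had adjusted p of 0.057 and 0.051. Ribosome biogenesis had 2 of 22 (Utp20 and Rrp12), glycolysis 1 of 15 (Hk2) and vascular tone 1 of 16 (Ednrb, 1.67-fold, 10.4 h). Hk2 correlated at 0.90 with the adipocyte sum and had an adjusted p of 0.53 with it as a covariate, where Rrp12 had 0.19. Without the libraries at 30 and 38, Rrp12 had an adjusted p of 0.094 and Ednrb of 0.11.

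The 3 further lists below had no call by edgeR. Acid-base transport had 0 of 17, with 2 at an unadjusted p under 0.05 and 1 by DESeq2. Transport of potassium, calcium and magnesium had 0 of 16, with 4 and 1. The respiratory chain had 0 of 22, with 0 and 0, and a median log2 amplitude of 0.04, against 0.12 over all genes tested.

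**Figure D4:**
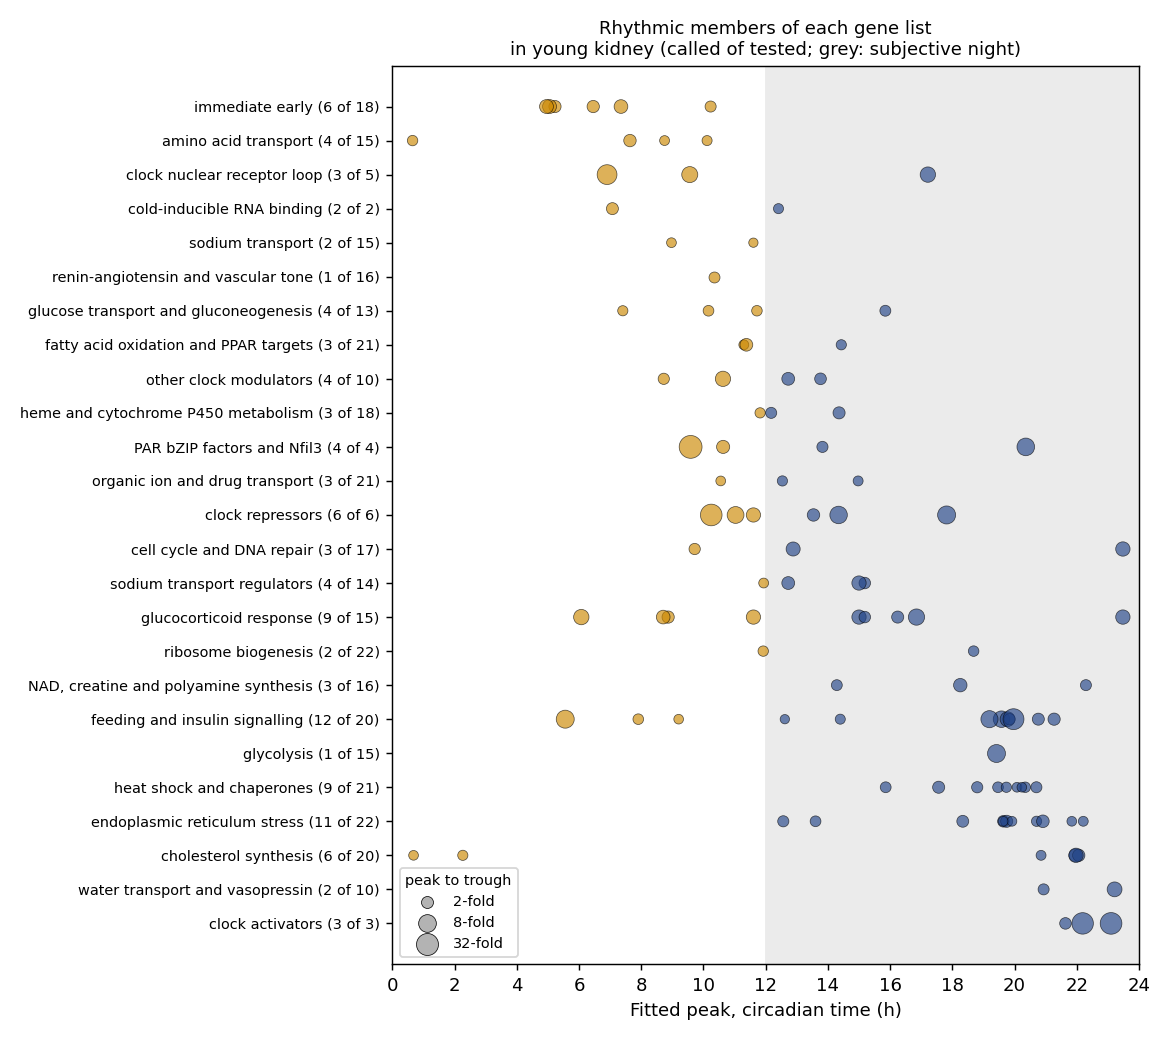
Fitted peak (x axis, circadian time in h; grey, subjective night) of every rhythmic member of each gene list (y axis, with the number called of the number tested); the area of a point grows with the log of its change from trough to peak. All 9 heat shock and 11 endoplasmic reticulum stress genes lie in the night, and all 4 amino acid carriers in the day.

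Outside the lists, the genes of largest amplitude in each 6 h span of the day with a mean of at least 5 CPM were examined. At 0 to 6 h, Cyp24a1, the enzyme that inactivates vitamin D, stood at 41.9, 61.7, 181, 163, 96.8 and 52.0 CPM in the first cycle and at 54.3, 39.9, 177, 314, 142 and 37.5 CPM in the second. All its day libraries lay above all its night libraries, a 5.97-fold change (3.32 to 10.7) with a peak at 5.36 ± 0.55 h and an adjusted p of 0.0019, which was 0.069 with the adipocyte covariate. Stra6l (2.51-fold, 1.40 h) and Itgb6, an integrin subunit (2.38-fold, 0.61 h), passed with and without the covariate, and Dcdc2a (2.56-fold) was highest in the library at 30. Havcr1 was called on that library alone (adjusted p = 0.0021 with it and 0.94 without it).

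At 6 to 12 h, Upp2, a uridine phosphorylase (3.39-fold, 10.5 h, adjusted p = 4.66e-07), Cpeb3, which controls translation (2.56-fold, 10.4 h, adjusted p = 5.71e-10), Gm15441 (4.45-fold, 10.2 h) and Clec2h (2.56-fold, 6.48 h) were named. Clec2h had an adjusted p of 0.28 with the adipocyte covariate and of 0.064 without the libraries at 30 and 38. Gm15441 runs antisense to Txnip, whose own peak was at 7.90 h, and since the use of strand in counting is not given the reads of the pair cannot be told apart. Ighg1, an antibody gene, was called on the library at 30 (74.3 CPM there), with an adjusted p of 0.69 without it. At 12 to 18 h were Coro2a (3.07-fold, 12.3 h, adjusted p = 3.44e-06), C4a (7.11-fold, 14.7 h), Nat8f5 (3.24-fold, 15.6 h), Sncg and Rbp4. C4a shares long stretches of sequence with C4b and Nat8f5 belongs to a family of near copies, so their counts are uncertain. Rbp4 had 56.3 CPM in the library at 38 and at most 5.55 CPM elsewhere. With the adipocyte covariate Sncg and Rbp4 had adjusted p of 0.47 and 0.16. At 18 to 24 h all 5 were genes known from fat tissue: Lep (leptin), Cidea, Thrsp, Plin4 and Aoc3, with 11.3-fold to 167-fold changes and peaks from 18.3 to 19.4 h. With the adipocyte covariate Lep, Cidea and Thrsp had adjusted p of 0.19, 0.84 and 0.35. Lep had 18.6 to 31.0 CPM at 18, 22, 38, 42 and 46 and at most 3.25 CPM at the other 7 times.

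By likeness of curve over the 12 libraries, Pearson's r being a description, the genes nearest to Dbp among 11537 with at least 5 CPM were Nr1d2 (0.98), Bmp2k (0.97), Ciart (0.965), Gm15441 (0.96) and Cpeb3 (0.96). Nearest to Arntl were Efhd1 (0.987), Mif4gd (0.987), Slc16a1 (0.985), Mtr (0.98) and Prdm16os (0.97). Slc16a1, a carrier of lactate and pyruvate, ran from 27.9 CPM at 34 to 125 CPM at 22, and Bmp2k, at 1.27-fold, did not pass the rhythm test (adjusted p = 0.052).

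Curves in kidney were then set against those of young heart and lung, in fits of 24 libraries each. The labels do not say whether tissues of the same circadian time came from the same animals. These fits treated the libraries as independent. Both comparisons use the same 12 kidney libraries. The daily curve differed between kidney and heart for 841 of 12193 genes (6.9%) and between kidney and lung for 240 of 13834 (1.73%). With circadian time as a block, which the tissues share, the counts were 549 and 173. Without the libraries at 30 and 38 they were 1165 and 368. Leaving out single kidney libraries moved the lung count by over 1.5 times in 6 cases, to 376 without the library at 30, 158 at 26, 156 at 34, 155 at 22, 137 at 42 and 135 at 58. Of genes rhythmic in both kidney and heart (352, which is 28.5% of the kidney and 19.2% of the heart calls in that fit), 66.5% peaked within 4 h of each other. For lung, 227 were shared (19.9% and 26%), of which 81.9% did. The same share over all genes tested was not computed for heart or lung, so these percentages have no background beside them.

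Some clock genes had different daily curves in kidney and heart. The test takes amplitude and peak together, here and against lung, so its p-values test neither alone. Of 17 core clock genes tested, 8 differed from heart, set against 6.9% of all genes. Of the 17, 12 had the higher fitted amplitude in kidney, called or not. Over all 841 genes that differed, 377 had the higher amplitude in kidney. The activators had earlier fitted peaks in kidney, and all 3 also had the higher amplitude there. Arntl peaked at 22.2 h in kidney and 0.32 h in heart (adjusted p = 0.0028), Npas2 at 23.1 and 1.07 h (adjusted p = 0.00045) and Clock at 21.6 and 1.51 h (adjusted p = 0.00082). Cry1 had an amplitude of 1.58 ± 0.09 in kidney and 0.63 ± 0.11 in heart (adjusted p = 0.00041), and Dbp of 2.72 ± 0.06 and 2.07 ± 0.13 (adjusted p = 0.00012). Hlf was the reverse, at 0.39 ± 0.06 and 0.98 ± 0.09 (adjusted p = 0.0010), and Tef peaked at 10.7 h in kidney and 12.6 h in heart (adjusted p = 0.0095).

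Against lung, 6 of 17 core clock genes had different curves, set against 1.73% of all genes. The kidney amplitude was the lower for Nr1d1 (1.97 ± 0.17 and 2.97 ± 0.20, adjusted p = 0.018), Nr1d2 (1.17 and 1.86, adjusted p = 0.012), Tef (0.67 and 1.02, adjusted p = 0.0037) and Hlf (0.39 and 1.12, adjusted p = 0.010). It was the higher for Cry1 (1.58 and 0.85) and Ciart (2.43 ± 0.18 and 0.75 ± 0.34), both with an adjusted p of 0.018. The curve of Dbp, with amplitudes of 2.74 and 2.86, did not pass (adjusted p = 0.65).

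**Figure D5:**
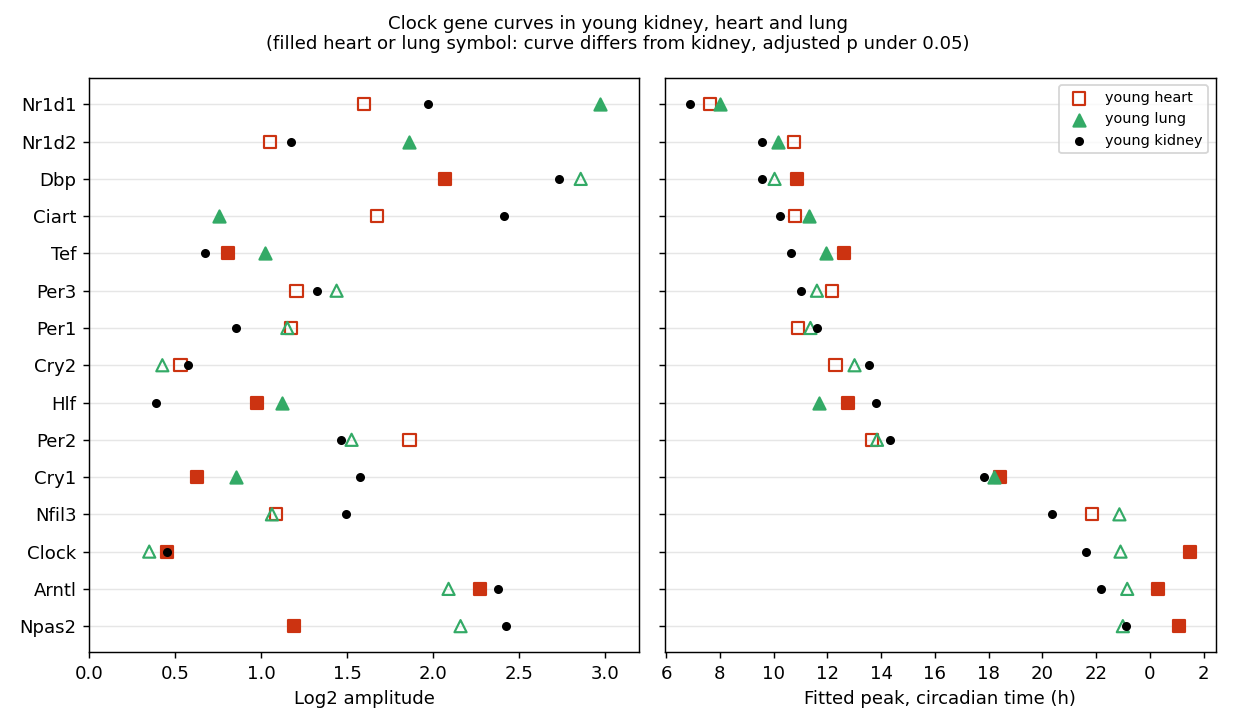
Fitted log2 amplitude (left x axis) and peak (right x axis, circadian time in h) of 15 clock genes (y axis) in young kidney (black dots), heart (red squares) and lung (green triangles); filled symbols mark curves that differ from kidney at an adjusted p under 0.05. Arntl, Npas2 and Clock peak earlier in kidney than in heart, and Cry1 has its highest amplitude, 1.58, in kidney.

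Beyond the clock, the genes of smallest p included Ppard, a nuclear receptor for fatty acids. In kidney it stood at 61.9, 93.9, 71.0, 28.9, 21.3 and 25.4 CPM in the first cycle and at 51.1, 97.0, 96.2, 35.0, 17.5 and 20.1 CPM in the second, with a log2 amplitude of 1.25 and a peak at 22.9 h. Its amplitude was 0.08 in heart (adjusted p of the difference 1.90e-07) and 0.05 in lung (1.58e-06). Slc16a1 had an amplitude of 1.04 in kidney and 0.17 in heart (adjusted p = 3.39e-07), and Rtl6 of 0.79 in kidney, 0.26 in heart and 0.07 in lung. Rhobtb1 peaked at 20.5 h in kidney and 13.6 h in heart, with amplitudes of 0.81 and 1.05. In lung its amplitude was 0.27 and its own rhythm did not pass (adjusted p = 0.079). Mid1ip1 had the lower amplitude in kidney (0.28 and 0.57 in heart), with peaks at 21.6 h in kidney and 13.4 h in heart. Fam210b also had the lower amplitude in kidney (0.14 and 0.32 in lung), with peaks at 7.85 h in kidney and 22.2 h in lung. The same held for the amplitudes of the vasodilator gene Adm (0.25 and 1.11 in lung) and Cttnbp2 (0.11 and 0.80 in lung).

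The list counts that follow are to be read against 6.9% of all genes for heart and 1.73% for lung. Of 22 endoplasmic reticulum stress genes, 7 had different curves in kidney and heart. All 7 had the higher amplitude in kidney, as did 377 of all 841 genes that differed from heart. Hspa5 had an amplitude of 0.46 ± 0.07 with a peak at 19.6 h in kidney and of 0.14 ± 0.05 in heart (adjusted p = 0.00025). Of 21 heat shock genes 3 differed from heart, Hspa4l, Hsph1 and Stip1. Against lung 0 genes of either list differed. In that fit 13 of the 21 heat shock genes were rhythmic in lung, but only 2 of the 22 endoplasmic reticulum stress genes. Of 17 genes of feeding and insulin signalling tested, 7 differed from heart and 2 of 18 from lung, Acaca and Fasn in both. Fasn had an amplitude of 1.28 in kidney and 0.11 in heart (adjusted p = 0.0022), with the adipocyte swing of the kidney libraries beside it.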

How the data were processed

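The deposited values are raw read counts per gene in 55376 rows, which the authors made with HISAT2 and HTSeq on GRCm38 (mm10), per the submitters' processing notes. The sources used here do not give tool versions or the use of strand in counting, so overlapping, antisense and near-identical genes are uncertain. No row lacked a gene name (0). Of 216 columns, 120 were neither mapped nor used, and young adrenal, hypothalamus and muscle columns entered no fit.

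The rhythm test used edgeR 4.0.16 (R 4.3.3): filterByExpr by age with a minimum count of 10, TMM scaling, and a robust quasi-likelihood F test of the young cosine and sine in a fit of 36 kidney libraries with separate terms for each age, adjusted by Benjamini-Hochberg with a threshold of 0.05. TMM factors of the young libraries ran from 0.93 to 1.03. Amplitude (log2), peak and their SE came from a least squares curve over the 12 young libraries, fitted to log2 CPM (prior count 2). The change from trough to peak has a 95% interval, and the curves of log2 CPM understate changes of low genes. Tissue fits held 24 libraries and genes passing the filter in each tissue. DESeq2 1.42.0 was an alternative, and the scripts were tested on simulated data. No 2 young kidney libraries agreed within sampling noise (66 pairs over 14960 genes, chi-square per degree of freedom 3.37 to 49.1).

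Named were all genes of the 5 clock lists, up to 5 members of smallest p per other list with any needed to account for a count, the 5 of largest amplitude per 6 h span of the day outside the lists (mean of at least 5 CPM), the 6 of smallest p per tissue comparison, and the 5 nearest to Dbp and to Arntl. Further members of lists that are given with values were chosen after their values were seen. Members, lists and tests were chosen with earlier results of these data known. The adipocyte covariate, the genes following the adipocyte list and the joint removal of the libraries at 30 and 38 were added after seeing the data.

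Promoter windows are from RefSeq (GRCm38.p6), where 12053 of 17184 tested genes had one. Per2 and Bhlhe40 are named only. Some members of the lists that entered the tests and counts are not reported here by name.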

Additional observations from a re-analysis of the deposited data

Results flagged for a closer look

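The daily curves of 11 gene and tissue pairs were singled out because the test of the difference between tissues was passed with p-values among the smallest; all p-values are edgeR's, adjusted by Benjamini-Hochberg. Between kidney and heart these were Ppard (1.9e-07), Slc16a1 (3.39e-07), Rhobtb1 (9.36e-07), Mid1ip1 (3.23e-06) and Rtl6 (7.63e-06). Between kidney and lung they were Ppard (1.58e-06), Fam210b (9.35e-06), Adm (1.3e-05), Cttnbp2 (5.33e-05), Rtl6 (0.000124) and Rhobtb1 (0.000124). Both comparisons use the same kidney libraries. In kidney itself Adm and Cttnbp2 did not pass the rhythm test (adjusted p = 0.17 and 0.46).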

How the results depend on the processing

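The count of 1362 rhythmic genes was 2352 with no filter on low counts, 627 at an adjusted p under 0.01, 865 with at least a 1.5-fold change, 325 for day against night libraries in place of the cosine, 234 and 221 in the first and second cycle alone, and 769 with the adipocyte covariate. In the same order the day count of 607 was 1075, 240, 358, 95, 92 and 72, and 354, and it was 916 with the young libraries alone. The night count of 755 was 1277 with no filter, 387 at 0.01, 230 for day against night, 142 and 149 in single cycles and 415 with the covariate. With 1 library left out, the counts ran from 990 to 1287, from 377 to 557 and from 588 to 791, with the lowest total and day count without the library at 42. A fit of the young libraries alone called 1999 of 15008 genes, and 1070 of them were among the 1362. The likelihood ratio test of DESeq2 called 1773, of which 1348 were among the 1362.

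The 841 genes differing from heart became 340 with a linear trend, 549 with circadian time as a block, 287 at a threshold of 0.01 and 1370 by DESeq2, and 573 to 1251 with 1 library left out. The 240 differing from lung became 99, 67 at 0.01, 575 by DESeq2 and 368 without the libraries at 30 and 38, and 135 to 376 with 1 left out. The cause of these shifts was not tested.

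Peaks moved by over 6 h for genes that rest on the library at 30 or 38. The log2 amplitude was 0.186 without the library at 30, 0.306 in the second cycle and 0.177 without both for Lcn2, and 0.170, 0.149 and 0.166 for Fos. It was 0.182 without the library at 38 and 0.168 without both for Alb, 0.130, 0.173 in the second cycle and 0.196 for Apoa1, and 1.08 in the second cycle for Ighg1. With each library left out in turn it ran from 0.170 to 0.686 for Fos, from 0.182 to 1.33 for Alb and from 0.130 to 1.44 for Apoa1. Of 152 results on single genes, 110 kept their call with any 1 library left out and 42 did not. The block of circadian time, which the tissues share, gave 173 for lung. How depth and scatter around the cosine each limit the calls was not tested.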
